A study of Mus musculus with 14 samples.

Results

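The IL-1 receptor family and its antagonist were followed through 9 genes chosen by name, Il1r1, Il1rl1, Il1rl2, Il18r1, Il1rap, Il18rap, Il1r2, Sigirr and Il1rn, and all 9 were found among the 55487 genes of the count tables. IL-1β signals when its receptor, encoded by Il1r1, recruits the accessory chain encoded by Il1rap, which the receptors for IL-33 (Il1rl1) and IL-36 (Il1rl2) also use. The receptor for IL-18 (Il18r1) has its own accessory chain (Il18rap), Il1r2 encodes a decoy that binds IL-1 without signalling, Sigirr encodes an inhibitory member of the family, and Il1rn encodes the antagonist that occupies the IL-1 receptor without recruiting the accessory chain. In bone marrow, IL-1 is known to push hematopoietic stem cells toward myeloid output.

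LSK cells, which carry both Sca1 and c-kit and are rich in stem cells, and LK cells, c-kit-positive progenitors, had been sorted without lineage-marked cells from bone marrow of mice carrying heterozygous Jak2V617F that had been given PBS or IL-1β intraperitoneally for 16 weeks, at 3 doses per week of 0.5 μg (the labels misprint the unit). By the study's methods, marrow of pI-pC-induced Mx1Cre; Jak2VF/+ donors had been transplanted into lethally irradiated C57BL/6 hosts. Mx1Cre is switched on by interferon in many cell types, and host cells that outlast irradiation carry wild-type Jak2. The mesenchymal stromal cells (MSC) were a separate experiment, cultured for 21 days from marrow of C57BL/6 mice and given PBS or IL-1β at 5 ng/ml for 72 hours. The mouse libraries numbered 3 with PBS and 2 with IL-1β in each of LSK and LK, and the MSC libraries 2 with each treatment. The labels do not say that each library is 1 animal or 1 culture, so p-values measure the spread between libraries, which may be technical in part.

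Libraries held 4393233 to 30871055 counted read pairs, with 12172400 to 18544346 in the PBS libraries of LSK and LK and 4393233 to 8641124 in the IL-1β libraries, so depth and treatment cannot be told apart there. LSK PBS replicate 2 stood apart from its group. It differed by more than 2-fold from replicate 1 at 2345 of 11562 genes and from replicate 3 at 2474 of 11710, whereas replicates 1 and 3 differed at 475 of 11570. The sorted populations carried their gate markers. Ly6a, which encodes Sca1, lay at 28.5, 41.7 and 32.2 CPM (counts scaled to a common library size with TMM normalization, set over the 10 LSK and LK libraries together and over the 4 MSC libraries together) in LSK with PBS, against 0.719, 0.258 and 0.790 CPM in LK with PBS.

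The MSC libraries went against their label in part. The 15 monocyte and macrophage genes examined, Ptprc among them, were all above 3 counts in each of the 4 libraries and summed to 24164 and 20328 CPM with PBS and to 42809 and 44016 CPM with IL-1β, with Lyz2 or Ctss the most abundant. The 15 mesenchymal genes summed to 3818 and 1912 CPM with PBS and to 4305 and 4816 CPM with IL-1β, with Col1a2 or Col3a1 the most abundant and Lepr at 0 in both PBS libraries. Values from these libraries are therefore values of the marrow cultures, and fewer cells of a type and less RNA per cell cannot be told apart in any of the bulk samples.

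Which population carried each chain was first asked under PBS. Levels of different genes were compared on the TPM scale, the counts per base of gene length scaled to the same sum in every library, without a test across the 3 populations because genotype, culture and treatment route differ. By mean TPM, 7 of the 9 genes were highest in LSK, Il1rl1 was highest in LK and Il1rn in MSC. Il1rap was highest in LK once LSK PBS replicate 1 was left out, which made the number 6. TPM values of LK PBS replicate 1 are set low by Gm23935, an RNA of 57 bases that took 35.2% of its TPM against 0.967% and 1.94% in the other LK PBS libraries and 2.59%, 10.4% and 5.98% in LSK, and with genes shorter than 300 bases left out, an alternative chosen after seeing the data, 7 genes were again highest in LSK.

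In LSK with PBS the inhibitory Sigirr was the most abundant of the 9, at 63.4 ± 15.01 TPM (SD, n = 3), and its libraries lay above those of every other member. Il1r1 followed at 31.8 ± 10.1 TPM and Il18rap at 28.3 ± 7.96 TPM, whose libraries overlapped. Il1rl1 (9.27 ± 3.07 TPM), Il18r1 (7.44 ± 2.93), Il1rl2 (4.45 ± 2.79) and Il1rap (4.39 ± 2.42) formed a lower tier in which neighbours overlapped. The decoy Il1r2 had 0.659 ± 0.632 TPM and the antagonist Il1rn 0.0362 ± 0.0627 TPM. The accessory chain of the IL-1 receptor thus stood at 0.138 times the TPM of Il1r1. The lengths behind TPM join the exons of all annotated transcripts, 11360 bases for Il1rap and 6363 for Il1r1. Ratios between genes depend on these lengths, whichever transcripts the cells made.

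LK cells with PBS had another order. Il1rl1, the IL-33 receptor gene, led at 32.1 ± 4.95 TPM (SD, n = 3) and Sigirr followed at 19.4 ± 7.05 TPM, both apart from the rest. Il1rap (3.65 ± 1.26 TPM), Il18rap (2.96 ± 1.16), Il1rl2 (2.89 ± 1.02) and Il1r1 (2.52 ± 1.04) overlapped in sequence, and Il18r1 (0.341 ± 0.0869 TPM), Il1r2 (0.157 ± 0.0338) and Il1rn (0.0382 ± 0.0416) lay below them. Here the accessory chain stood at 1.45 times the TPM of Il1r1.

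In MSC with PBS the antagonist was the leading member. Il1rn stood at 20.8 ± 2.88 TPM (SD, n = 2), 7.08 times the TPM of Il1r1, and the counts of Il1rn in all 10 LSK and LK libraries were 0 to 5 read pairs. Il1rl1 (3.40 ± 0.117 TPM), Il1r1 (2.94 ± 0.743), Il1rl2 (2.34 ± 0.303) and Il1rap (2.33 ± 0.584) overlapped in sequence, with Il18rap at 0.591 ± 0.0213 TPM and Sigirr at 0.239 ± 0.137 TPM. Il18r1 had 0 counts in all 4 MSC libraries, which allows at most 0.0984 CPM in the deepest and 0.500 CPM in the shallowest. Floors and counting intervals given here cover counting error only.

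**Figure D1:**
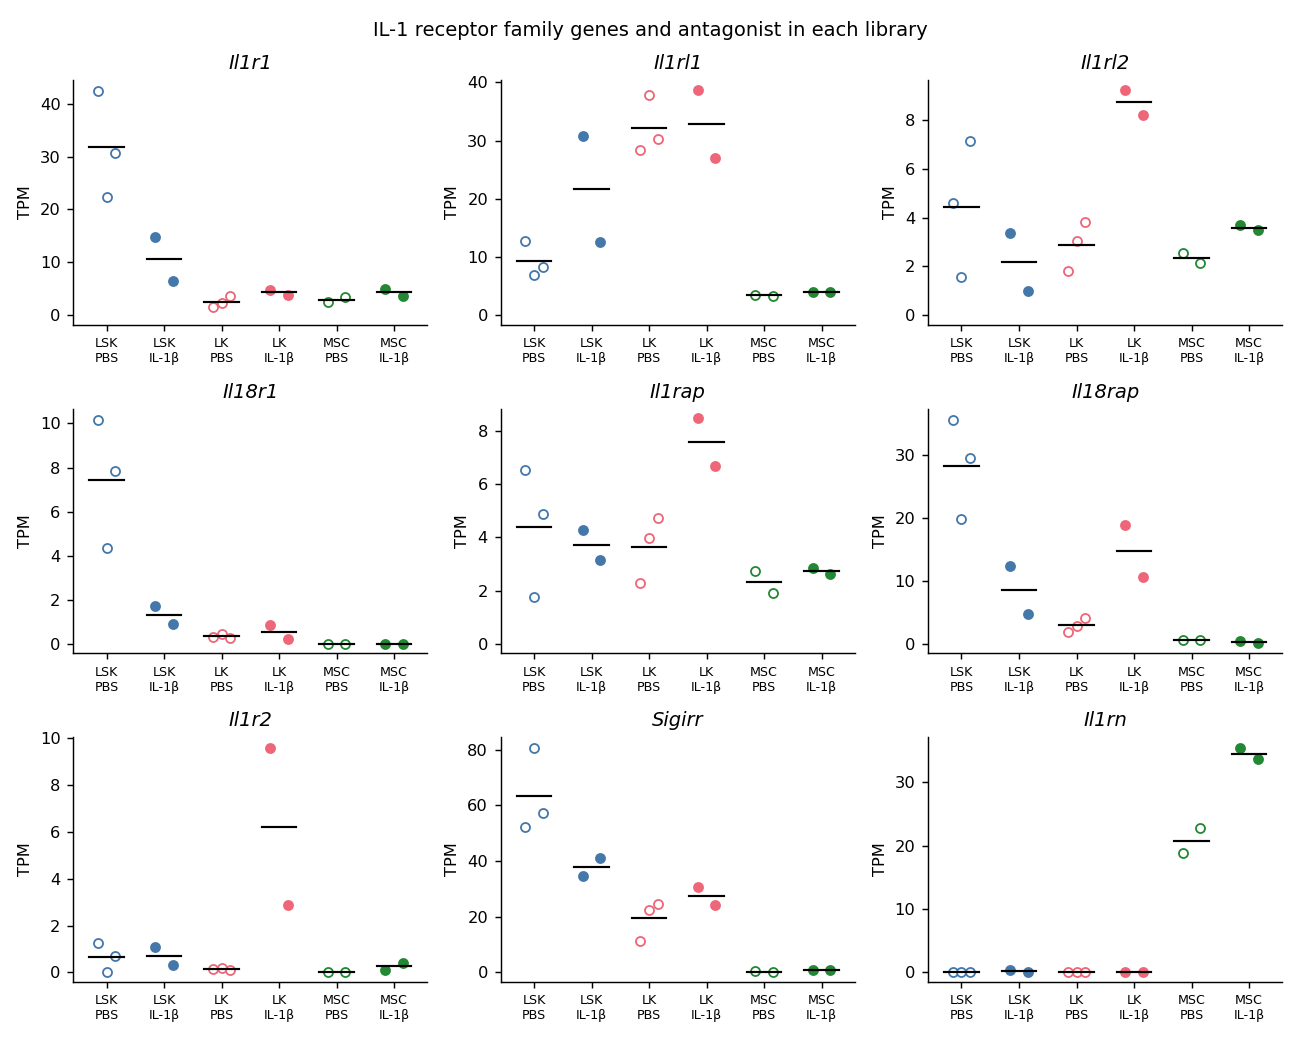
TPM (vertical axis, linear, its own scale in each panel) of the 9 genes in each library, by population and treatment, with open circles for PBS, filled circles for IL-1β and bars for group means. Il1r1 and Il18r1 are highest in LSK with PBS, Il1r2 in LK with IL-1β (9.56 and 2.89 TPM) and Il1rn in MSC.

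LSK and LK were next compared directly under PBS, within a fit of all 10 LSK and LK libraries. A gene was called when its Benjamini-Hochberg adjusted p in edgeR's quasi-likelihood test was under 0.05 and its log2 fold change above 0.5 in size. Il1r1 lay at 68.1, 47.8 and 58.3 CPM in LSK and at 5.03, 4.38 and 7.25 CPM in LK. No LSK library came near the LK range, and the log2 fold change was 3.39 ± 0.31 (SE; edgeR adjusted p = 2.46e-05). Il18r1 lay at 12.3, 7.05 and 11.2 CPM in LSK and at 0.719, 0.619 and 0.431 CPM in LK, from 6 to 12 read pairs a library, so that it passed the filter only through the LSK libraries and its test is not used here. The ratio of summed CPM was 17.5, with an exact 95% counting interval of 11.9 to 26.9. Its accessory chain Il18rap, at 60.7, 45.3 and 59.5 CPM in LSK against 6.31, 5.62 and 8.83 CPM in LK, had a log2 fold change of 3.00 ± 0.33 (edgeR adjusted p = 8.32e-05). Both chains of the IL-18 receptor were therefore higher in every LSK library with PBS than in any LK library with PBS.

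Sigirr was also higher in LSK, at 40.1, 82.7 and 52.1 CPM against 17.4, 19.8 and 23.5 CPM, and its log2 fold change was 1.53 ± 0.27 (edgeR adjusted p = 0.0013). Its highest value was that of LSK PBS replicate 2, and without that library the log2 fold change was 1.19. Il1rl1 ran the other way, at 22.1, 16.0 and 16.9 CPM in LSK and 98.6, 75.8 and 65.4 CPM in LK, a log2 fold change of -2.13 ± 0.28 (edgeR adjusted p = 0.000241). Il1r1, Il18rap, Sigirr and Il1rl1 were called in each of the 17 alternatives that were run, with the same sign. Il1rap and Il1rl2 overlapped between the populations and were not called (log2 fold changes of -0.03 and 0.36). Il1r2 overlapped too, with 8, 0 and 7 read pairs in LSK against 2, 2 and 1 in LK. The exact 95% counting interval for its ratio of summed CPM was 1.098 to 11.2. It was not called, but it passed the filter only through the LK libraries with IL-1β, so its test is not used here. Il1rn had too few counts to be tested.

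As a description, since Il18r1 and Il1r2 are counted among the 8 members tested, 4 met the threshold as higher in LSK and 1 as lower. Of all 13839 genes tested, 19.4% and 12.4% were called in those directions. The libraries of 5 of the 8 did not overlap, against 48% of all genes tested. The erythroid genes examined, Klf1, Epor, Car1 and Tfrc among them, markers of cells that the LK gate also takes, were all called lower in LSK, and the 10 stem cell genes were all called higher. The summed erythroid level was 541, 373 and 433 CPM in LSK and 4016, 3204 and 3177 CPM in LK, with Tfrc and Car1 the most abundant. The summed stem cell level was 1131, 828 and 1101 CPM in LSK and 335, 351 and 409 CPM in LK, with Kit the most abundant in both. Among the other lists, edgeR called 6 of 13 neutrophil granule genes lower in LSK. Called higher were 2 of 3 lymphoid, 3 of 5 megakaryocyte, 3 of 13 monocyte and macrophage and 2 of 4 endothelial genes tested. Of 9 mast cell and basophil genes tested, 2 were called higher and 2 lower. The mesenchymal list had 2 of 7 higher and 1 lower, and the natural killer and innate lymphoid list 1 of 3 higher. What part this makeup has in the receptor values was not tested.

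The question of how IL-1β changes the family was put to LK cells, where the IL-36 receptor Il1rl2 and the accessory chains Il18rap and Il1rap were called higher, and where the decoy Il1r2 is described by its counts. Il18rap lay at 6.31, 5.62 and 8.83 CPM with PBS and at 40.8 and 23.0 CPM with IL-1β. Both IL-1β libraries exceeded every PBS library, with a log2 fold change of 2.21 ± 0.29 (SE; edgeR adjusted p = 0.00518). Its partner Il18r1, the ligand-binding chain, had 9, 12 and 6 read pairs with PBS and 10 and 2 with IL-1β and was not tested. The ratio of the summed Il18r1 CPM was 1.48 with an exact 95% counting interval of 0.685 to 3.03, so neither a rise nor a fall could be told at this depth.

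Il1rl2 lay at 6.15, 6.03 and 8.19 CPM with PBS and at 20.2 and 18.0 CPM with IL-1β, without overlap, and rose by a log2 fold change of 1.50 ± 0.23 (edgeR adjusted p = 0.00719). Il1rap, the chain shared by the IL-1, IL-33 and IL-36 receptors, lay at 12.9, 13.1 and 16.9 CPM with PBS and at 31.0 and 24.4 CPM with IL-1β. Those groups did not overlap either, and the log2 fold change was 0.96 ± 0.20 (edgeR adjusted p = 0.0205).

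The decoy Il1r2 was counted 2, 2 and 1 times in the PBS libraries and 44 and 11 times in the IL-1β libraries. Each PBS library was near 0, the IL-1β libraries differed 4-fold in raw counts from each other, and the gene passed the filter on low counts only through the IL-1β group, where it is high, so its test is not used here. With PBS at the floor no fold is given, and the exact 95% counting interval for the ratio of summed CPM ran from 14.8 to 118. On the TPM scale the decoy with IL-1β was at 1.45 times the Il1r1 mean (9.56 and 2.89 TPM of Il1r2 beside 4.75 and 3.85 TPM of Il1r1).

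The other LK members tested were not called. Il1r1 lay at 5.03, 4.38 and 7.25 CPM with PBS and at 9.70 and 7.88 CPM with IL-1β, higher in both IL-1β libraries, but it did not pass the test (log2 fold change 0.67 ± 0.31, edgeR adjusted p = 0.228) and was not under 0.05 before adjustment. Sigirr was at 17.4 to 23.5 CPM with PBS and at 23.8 and 29.9 CPM with IL-1β (0.41 ± 0.19, edgeR adjusted p = 0.223). Il1rl1 overlapped, at 65.4 to 98.6 CPM with PBS and 59.8 and 85.4 CPM with IL-1β (-0.13 ± 0.21, edgeR adjusted p = 0.745). The antagonist Il1rn had 0, 1 and 2 read pairs with PBS and 0 in both IL-1β libraries, which allows up to 0.399 and 0.483 CPM.

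Of 7 members tested in LK, 4 met the threshold for a call as higher, beside 6.77% of 12835 genes tested. Il1r2 is 1 of the 4, so the number is a description and no evidence that the family differs from other genes. For falls, edgeR called 0 members, beside 2.57% of those genes, DESeq2 also called 0, and 0 had an unadjusted p under 0.05. The libraries of 6 of the 7 did not overlap, against 45.7% of all genes tested, and all 6 were higher with IL-1β. Single libraries decided several calls. Without IL-1β replicate 1 no member was called (edgeR adjusted p of 0.0915 for Il18rap, 0.132 for Il1rl2 and 0.281 for Il1rap). Without IL-1β replicate 2, Il18rap was called, while Il1rl2 had 0.0543 and Il1rap 0.0741 (edgeR adjusted p), and Il1rap also missed the threshold without PBS replicate 1 (0.0709) or 2 (0.0724). Without PBS replicate 3, Il1r1 and Sigirr were called as well (edgeR adjusted p = 0.0358 and 0.0422).

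Il18rap, Il1rl2 and Il1rap had the same sign in each of the 12 alternatives. Their adjusted p over edgeR and DESeq2 alternatives ran from 3.22e-19 to 0.0915 for Il18rap, 1.40e-06 to 0.132 for Il1rl2 and 0.000237 to 0.281 for Il1rap. Their log2 fold changes with 1 library left out stayed at 1.72 to 2.57, 1.40 to 1.66 and 0.76 to 1.12. The adjusted p of Il1r1 ran from 0.0358 to 0.687 and that of Sigirr from 0.0422 to 0.756.

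Several genes of granulocytes were also called higher in LK, where edgeR called 6.77% of 12835 genes tested higher. Of the 13 neutrophil granule genes, 12 were tested and 8 called higher, and their summed level was 4535, 5699 and 9786 CPM with PBS and 22313 and 18983 CPM with IL-1β, with Mpo the most abundant, Camp and Retnlg at 0 in PBS replicate 2, Retnlg at 0 in PBS replicate 3 and Mmp8 at 0 in IL-1β replicate 2. Of the 10 mast cell and basophil genes, 8 were tested and 4 called higher, with sums of 596, 356 and 367 CPM with PBS and 2762 and 1496 CPM with IL-1β. Their most abundant gene with IL-1β was Prss34, a basophil protease gene, at 1291 and 666 CPM against 186, 47.2 and 29.1 CPM with PBS, while Tpsb2 and Mcpt4 were at 0 in both IL-1β libraries. Genes of natural killer and innate lymphoid cells, which are known for the IL-18 receptor, summed to 53.7, 59.7 and 103 CPM with PBS and to 286 and 241 CPM with IL-1β, but nearly all of that was Nkg7, which was called higher. Of the rest, Gzma and Eomes were at 0 in all 5 LK libraries, and Prf1, Ncr1, Tbx21, Klrb1c and Rora were at 1.73 CPM or less in each. Some neutrophil genes lay near 0 with PBS, such as Ngp at 0.206 and 0.431 CPM in PBS replicates 2 and 3. Counts of calls in these lists are therefore descriptions. The part of these lists in the receptor changes was not tested.

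In LSK cells no member passed edgeR's test of IL-1β against PBS, while DESeq2, the test of the study's methods, called 4. Il1r1 lay at 68.1, 47.8 and 58.3 CPM with PBS and at 32.2 and 16.4 CPM with IL-1β, where the highest IL-1β library was under the lowest PBS library. The log2 fold change was -1.20 ± 0.34 (SE; edgeR adjusted p = 0.131). Il18r1 lay at 12.3, 7.05 and 11.2 CPM with PBS and at 2.84 and 1.72 CPM with IL-1β (-2.08 ± 0.57, edgeR adjusted p = 0.121), and Il18rap at 60.7, 45.3 and 59.5 CPM with PBS and 28.9 and 12.99 CPM with IL-1β (-1.33 ± 0.37, edgeR adjusted p = 0.121). Neither pair of groups overlapped. Il1rl1 was higher in both IL-1β libraries, at 73.0 and 34.8 CPM against 22.1, 16.0 and 16.9 CPM with PBS, a log2 fold change of 1.61 ± 0.35 (edgeR adjusted p = 0.0775).

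The remaining LSK members overlapped between treatments. Il1rap had a log2 fold change of 0.20 ± 0.46, Il1rl2 of -0.64 ± 0.70 and Sigirr of -0.40 ± 0.35. Il1r2 was counted 8, 0 and 7 times with PBS and 6 and 1 times with IL-1β, a ratio of CPM of 1.66 with an exact 95% counting interval of 0.572 to 4.32. Il1rn was counted 2, 0 and 0 times with PBS and 5 and 0 times with IL-1β, with an interval for the ratio of 1.45 to 93.3. All 5 of those read pairs came from 1 library, and the 0 in the other allows up to 0.735 CPM.

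Among the 7 members tested in LSK, edgeR called 0 in either direction, beside 0.32% of 13132 genes called higher and 0.312% called lower. At an unadjusted p under 0.05 there were 4, Il1rl1 higher and Il1r1, Il18r1 and Il18rap lower, and DESeq2 called the same 4 (adjusted p of 0.0025 for Il1rl1, 0.0187 for Il18r1, 0.0214 for Il18rap and 0.0329 for Il1r1). By those criteria 2431 of the 13132 genes had an unadjusted p under 0.05, and DESeq2 called 870 genes. Their adjusted p over all edgeR and DESeq2 alternatives ran from 0.000393 to 0.276 for Il1rl1, 0.0187 to 0.592 for Il18r1, 0.00486 to 0.592 for Il18rap and 0.0116 to 0.631 for Il1r1. The libraries of these 4 did not overlap between treatments, against 39.6% of all genes tested. Without LSK PBS replicate 2, Il18r1 was called (log2 fold change -2.24, edgeR adjusted p = 0.0455). Il1r1 (-1.28), Il18rap (-1.41) and Il1rl1 (1.56) kept their sign in that fit but were not called. With any 1 library left out, the log2 fold changes ran from -1.80 to -0.78 for Il1r1 and from -2.54 to -1.77 for Il18r1. They ran from -2.06 to -0.86 for Il18rap and from 0.95 to 2.07 for Il1rl1.

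Other cell type genes shifted in the same LSK libraries. The 10 stem cell genes summed to 1131, 828 and 1101 CPM with PBS and to 598 and 483 CPM with IL-1β, with Kit the most abundant, 2 of 10 called lower by edgeR and 5 by DESeq2, and Fgd5 at 0 in IL-1β replicate 2. The 8 lymphoid genes summed to 384, 623 and 347 CPM with PBS and 67.2 and 37.0 CPM with IL-1β, led by Flt3 in all but PBS replicate 2, which Dntt led. Both Dntt and Flt3 were called lower, and Rag1, Cd79a, Ebf1 and Cd3e were at 0 in both IL-1β libraries. The neutrophil granule genes summed to 2494, 2209 and 3209 CPM with PBS and to 10184 and 12229 CPM with IL-1β, led by Mpo, with 5 of 11 tested genes called higher and with Camp, Retnlg and Mmp8 at 0 in PBS replicate 2 and IL-1β replicate 2. Il1rl1 is a familiar surface marker of mast cells and basophils but is not in their list. In LK that list summed to 596, 356 and 367 CPM with PBS and to 2762 and 1496 CPM with IL-1β. Il1rl1 overlapped between treatments there (log2 fold change -0.13). In LSK the list summed to 453, 376 and 431 CPM with PBS and to 851 and 672 CPM with IL-1β, led by Gata2. Of 9 tested, 3 were called higher (Cpa3, Ms4a2 and Hdc). Mcpt4 was at 0 in PBS replicate 2 and IL-1β replicate 1. The natural killer and innate lymphoid genes summed to 103, 109 and 111 CPM with PBS and to 196 and 293 CPM with IL-1β, led by Nkg7. Of 3 tested, edgeR called 0, while DESeq2 called 1 higher. Over all genes tested in LSK, edgeR called 0.32% higher and 0.312% lower. Some listed genes lay near 0 with PBS, such as S100a9 at 0.530, 0.155 and 0.116 CPM. Counts of calls in these lists are therefore descriptions. The part of cell makeup in the LSK receptor values was not tested.

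**Figure D2:**
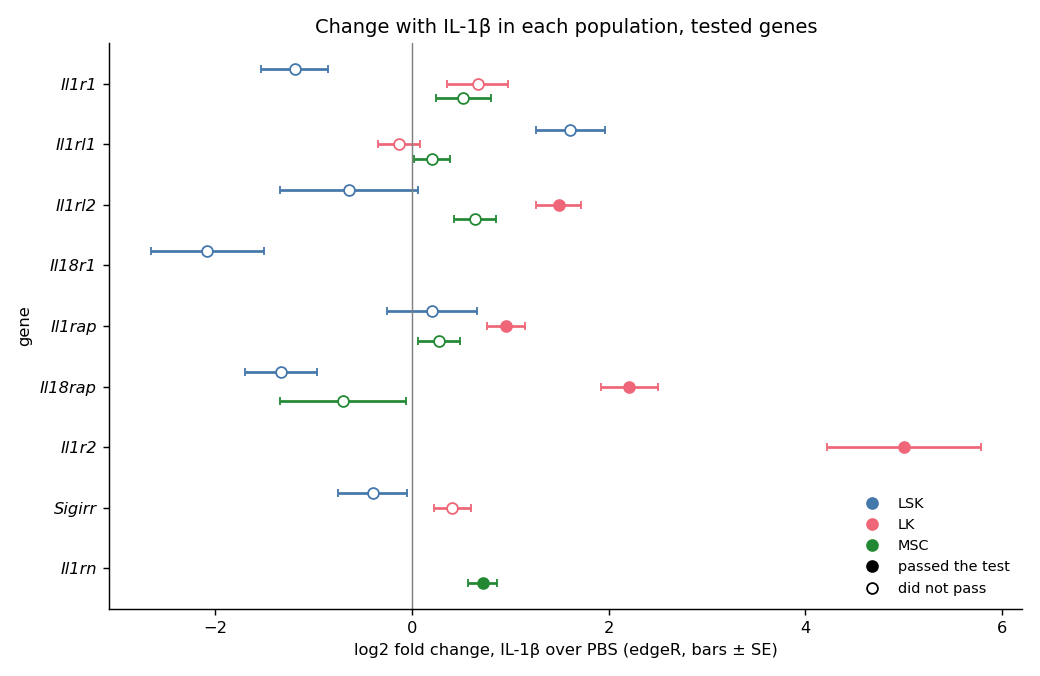
Log2 fold change of IL-1β over PBS (horizontal axis, edgeR, bars ± SE) for each member tested in LSK, LK and MSC. Filled points met the threshold for a call and open points did not. Il18rap is at 2.21 in LK and -1.33 in LSK. The Il1r2 point in LK is not used as a result, since the gene passed the filter only through the IL-1β group. It rests on 1 or 2 read pairs in each PBS library, and its counting interval for the ratio, 14.8 to 118, covers counting error only.

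Whether the response differed between LSK and LK was tested as an interaction over the 10 libraries, where a gene was called at an adjusted p under 0.05 whatever its fold. Il18rap was called, with the LSK log2 response 3.58 ± 0.51 (SE) below the LK response, a difference of -3.58 (edgeR adjusted p = 0.0479). It was 1 of 8 members tested, and 4 of all 13839 genes tested were called, 0.0289%. The LSK and LK changes under IL-1β and the difference between LSK and LK under PBS share their PBS libraries, so these results are not independent of each other. Il1r1 differed by -1.91 ± 0.46 (edgeR adjusted p = 0.151), Il1rl1 by 1.71 ± 0.44 (0.161) and Il1rl2 by -2.16 ± 0.77 (0.255), none of them called by edgeR. Sigirr differed by -0.84 ± 0.42 (0.39) and Il1rap by -0.79 ± 0.53 (0.512), also without a call by edgeR. Il18r1 and Il1r2 were not called either, and their estimates are not used because they passed the filter only through 1 population. DESeq2 called Il1r1 and Il1rl1 as well (adjusted p = 0.0162 and 0.0136).

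The interaction call was narrow. With the library number as a block, 24 genes were called and Il18rap had an edgeR adjusted p of 0.00133. With DESeq2's size factors or upper-quartile factors in edgeR it had 0.059 and 0.0591, and its range over the alternatives was 1.28e-12 to 0.285. Leaving out 1 library ended the call for LSK PBS replicate 1 (edgeR adjusted p = 0.199), LSK PBS replicate 3 (0.0661), LSK IL-1β replicate 2 (0.285), LK PBS replicates 1, 2 and 3 (0.0993, 0.186 and 0.0534) and LK IL-1β replicates 1 and 2 (0.274 and 0.109). Without LSK PBS replicate 2 it was 0.0309, and Il1r1 was then called too (0.0482), as it was without LSK IL-1β replicate 1 (0.0423), within a range of 0.00829 to 0.762. The Il18rap difference ran from -4.27 to -3.07 over all 16 alternatives.

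In the marrow cultures IL-1β raised the antagonist. Il1rn lay at 33.8 and 44.1 CPM with PBS and at 65.4 and 64.2 CPM with IL-1β, counts of 203 and 585 against 1993 and 728 read pairs. Both IL-1β libraries were above both PBS libraries and close to each other, and the log2 fold change was 0.72 ± 0.15 (SE; edgeR adjusted p = 0.0339). The call rested on both IL-1β libraries, since the edgeR adjusted p was 0.334 without replicate 1 and 0.28 without replicate 2, with log2 fold changes of 0.72 and 0.73. Over all alternatives it ran from 1.09e-06 to 0.334.

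The receptor chains of the cultures did not pass the test. Il1r1 lay at 5.00 and 7.68 CPM with PBS and at 10.6 and 7.94 CPM with IL-1β, groups that nearly touched (log2 fold change 0.52 ± 0.28, edgeR adjusted p = 0.277). Il1rl2 lay at 5.67 and 5.05 CPM with PBS and at 8.39 and 8.21 CPM with IL-1β (0.64 ± 0.21, edgeR adjusted p = 0.107). Il1rap (0.27 ± 0.21), Il1rl1 (0.21 ± 0.18) and Il18rap (-0.70 ± 0.64, from 8 and 18 read pairs with PBS and 35 and 4 with IL-1β) were not called. Without MSC PBS replicate 2, Il1rl2 was called (edgeR adjusted p = 0.0136, range 0.0136 to 0.626), and without MSC PBS replicate 3, Il1r1 was (0.0263, range 0.0263 to 0.841), with a log2 fold change of 0.94.

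A pair of MSC members lay near the floor. Sigirr was counted 2 times in each PBS library and 24 and 9 times with IL-1β, with an exact 95% counting interval of 1.35 to 14.8 for the ratio of CPM and no test, and with PBS at the floor no fold is given. Il1r2 was counted 0 times in both PBS libraries and 2 and 3 times with IL-1β, which is at the floor of 3 counts, so no fold is given for the decoy.

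Of the 6 members tested in MSC, 1 was called higher, beside 7.14% of 13239 genes tested. For falls, edgeR called 0 members, beside 4.31% of those genes, DESeq2 also called 0, and 0 had an unadjusted p under 0.05. No member group overlapped between treatments, but neither did those of 61.2% of all genes tested. Under upper-quartile factors the 945 genes called higher and 570 called lower became 817 and 831, a share of higher calls of 49.6% in place of 62.4%, and Il1rn was still called. The monocyte and macrophage genes had 8 of 15 called higher, Lyz2 and Csf1r among them, and the mesenchymal genes 2 of 13 tested, Vcam1 and Dcn. Il1rn is known to be made by macrophages, and what part the macrophage share of the cultures has in its value was not tested.

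The ligands and partners of these receptors were taken from lists of pathway genes. Counts of calls in the lists are descriptions, since some of their genes, such as Il1b in MSC and Saa3 in LK, passed the filter only through the group where they are high. Over all genes tested, edgeR called 7.14% higher in MSC, 6.77% in LK and 0.32% in LSK. Of the 9 ligand genes, 4 were tested in MSC and 2 met the threshold as higher, and the agonist Il1b, at 1.33 and 0.602 CPM with PBS, stood at 64.6 and 75.9 CPM with IL-1β. Il18bp, the soluble inhibitor of IL-18, rose in MSC from 6.00 and 3.54 to 21.9 and 23.1 CPM (2.30 ± 0.26, edgeR adjusted p = 0.00772). Il18 itself was at 3.71, 2.79 and 4.60 CPM in LSK with PBS and at 0.355 and 0 CPM with IL-1β, but it passed the filter only through the PBS libraries, so no change is claimed. Of the 2 ligand genes tested in LSK, Il18 included, edgeR called 0, while 1 had an unadjusted p under 0.05 and 1 was called by DESeq2. In LK the single ligand gene that passed the filter, Il36g, did so only through the IL-1β libraries, at 1.196 and 1.45 CPM against 0.0798, 0.103 and 0 CPM with PBS, so no change is claimed, although edgeR called it and DESeq2 did not.

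Among the 16 adaptor and kinase genes, all tested, 3 were called higher in LK (Myd88, Irak3 and Peli2), beside 6.77% of all genes tested. In MSC 3 were called higher (Irak3, Peli1 and Peli2), beside 7.14%. The list medians in LK and MSC were 0.00 and 0.21, against medians of -0.03 and 0.00 over all genes tested. Irak3, which encodes a brake on IL-1 receptor signalling, lay at 15.9, 19.1 and 25.5 CPM in LK with PBS and at 51.3 and 40.7 CPM with IL-1β (log2 fold change 1.19 ± 0.21, edgeR adjusted p = 0.0132). In MSC it lay at 16.7 and 12.05 CPM with PBS and at 36.8 and 37.4 CPM with IL-1β (1.40 ± 0.18, edgeR adjusted p = 0.0102). In LSK edgeR called 0 of these adaptor genes, with 1 lower at an unadjusted p under 0.05 and 0 called by DESeq2. The 16 NF-kB target and feedback genes had 12 called higher of 16 tested in MSC (median log2 fold change 1.28), beside 7.14% of all genes tested. Saa3, Il6 and Cxcl1 were among them, Il6 from PBS libraries near 0 (0.167 and 0.452 CPM). In LK 1 of 11 tested was called higher, Saa3, also with PBS libraries near 0, beside 6.77% of all genes tested. The difference between MSC and LK was not tested. In LSK edgeR called 0 of 12 tested, 3 higher and 3 lower had an unadjusted p under 0.05, and DESeq2 called 1 higher. Of the 4 proteases, MSC had 2 called higher, Casp4 and Adam17. In LK and LSK edgeR called 0 of the 4, with 1 and 0 at an unadjusted p under 0.05 and 1 and 0 called by DESeq2. Between LSK and LK under PBS, 1 of 3 ligands, 4 of 16 adaptors and kinases, 5 of 13 NF-kB genes and 1 of 4 proteases met the threshold as higher in LSK, and 2 of the adaptors and kinases and 1 of the NF-kB genes as lower, beside 19.4% and 12.4% of all genes tested. The interaction called 0 genes of these lists in edgeR, where 2 higher and 8 lower had an unadjusted p under 0.05 and DESeq2 called 1 lower.

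The other marker lists had these calls, beside 6.77% higher and 2.57% lower of all genes tested in LK and 7.14% and 4.31% in MSC. In LK, 3 of 8 erythroid genes (Klf1, Epor and Car1), 1 of 4 tested megakaryocyte genes (Vwf) and the lymphoid gene Flt3 were called lower, and of 12 tested monocyte and macrophage genes Csf1r and Ctss were called lower and Cybb and Ptprc higher. Of the mesenchymal list in LK, Thy1 and Vcam1 were called higher and Eng lower, all 3 of which blood cells also express, and Hoxa9 was the single stem cell gene called higher. In MSC, Pf4 of the megakaryocyte list was called higher and Il7r of the lymphoid list lower. Genes of these lists that were near 0 in 1 group passed the filter only through the other group, and their calls are not given. Endothelial genes in LK summed to 46.1, 44.1 and 76.7 CPM with PBS and 63.7 and 45.7 CPM with IL-1β, nearly all of it Pecam1, with Cdh5 at 0 in all 5 libraries.

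The members share a place in the genome that the choice by name did not use. Il1r2, Il1r1, Il1rl2, Il1rl1, Il18r1 and Il18rap lie in that order on the plus strand of chromosome 1 within 477627 bases (chr1:40074079-40551705, GRCm38). Il1rn lies on chromosome 2 (chr2:24336853-24351494), Il1rap on chromosome 16 (chr16:26581704-26730117) and Sigirr on chromosome 7 (chr7:141091175-141100572, minus strand). No member shared exon bases with another gene on its own strand. Il1rap shared 552 exon bases with Gm20319 on the opposite strand, which the stranded counting separates. In LK with IL-1β, Il1rl2 and Il18rap of this row were called higher, Il1r1 and Il1rl1 were not, Il18r1 was not tested, and differences between neighbours were not tested. The annotation gives 3 to 8 transcripts per member, and gene counts cannot separate the soluble from the membrane forms of Il1rl1 and Il1rap or the secreted from the intracellular forms of Il1rn.

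**Figure D3:**
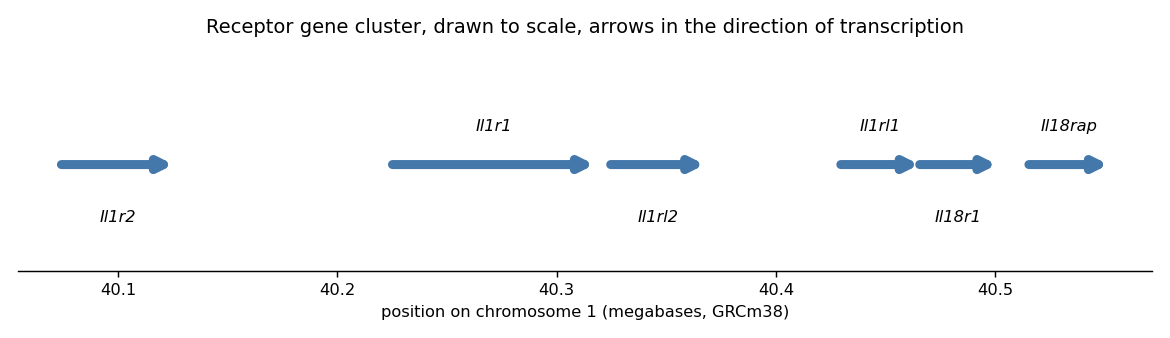
The 6 members on chromosome 1, drawn to scale by position in megabases (GRCm38) with arrows in the direction of transcription. The row runs from Il1r2 at 40074079 to the end of Il18rap at 40551705.

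Promoter windows were read because Il1rl2 and Il18rap of this row were both called higher in LK. RefSeq windows of the 250 bases before each annotated start (GRCm38.p6) were held for 8 of the 9 members, 14 windows in all, and not for Sigirr. The letters GGAANTTCC, chosen after the windows had been read because they resemble NF-kB sites and the same on both strands, were in 1 window each of Il1r2, Il1rl2 and Il18rap. Of all 32851 windows, 267 held them (0.813%), and since the letters were picked from the members' own windows, that share tests nothing. The letters TTCNNNGAA were in Il1r2, where they overlapped the first match, and in Il18r1 (7.02% of all windows), and GATAAG, read on both strands, was in Il1rl1 (6.55%). The windows of Il18rap (chr1:40515112-40515361, plus strand, ahead of its first exon) and Il1rl2 (chr1:40324339-40324588, plus strand, also ahead of its first exon) are shown with GGAANTTCC matches in capitals, as the pair of receptor genes called in LK whose windows held no annotated exon. A match is a description of the letters and shows no binding.
Il18rap: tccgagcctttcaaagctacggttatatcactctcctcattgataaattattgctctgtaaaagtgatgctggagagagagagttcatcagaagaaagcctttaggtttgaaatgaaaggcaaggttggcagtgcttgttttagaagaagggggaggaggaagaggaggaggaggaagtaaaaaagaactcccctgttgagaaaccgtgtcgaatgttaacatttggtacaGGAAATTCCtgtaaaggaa
Il1rl2: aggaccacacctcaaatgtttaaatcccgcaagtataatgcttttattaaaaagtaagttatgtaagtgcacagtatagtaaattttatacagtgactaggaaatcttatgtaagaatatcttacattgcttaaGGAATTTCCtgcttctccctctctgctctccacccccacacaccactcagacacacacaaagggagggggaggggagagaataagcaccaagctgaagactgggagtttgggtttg

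The gene whose pattern over the 14 libraries lay nearest to each member was found by the root-mean-square difference of centred log2 CPM among 11050 genes with a mean of at least 1 log2 CPM. For Il1r1 it was Sesn3 (0.39 log2 units) and for Sigirr Agap2 (0.37). Il1rl1 lay nearest to Abcb10 (0.35), Il1rl2 to Chst11 (0.42), Il1rap to Elovl5 (0.24) and Il18rap to B3gnt5 (0.56), so Il18rap had the least close neighbour of these 6. Il18r1, Il1r2 and Il1rn were under the minimum, and no member was the nearest gene of another.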

How the data were processed

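The authors deposited raw counts, the number of read pairs assigned to each gene, from rRNA-depleted libraries. By their notes, methods and file headers, reads were trimmed with fastp 0.20.0, aligned to GRCm38 with HISAT2 2.0.1 and counted on Ensembl genes with featureCounts 2.0.2 in reverse-stranded mode. The methods name UCSC's mm10, the same assembly, and Genomic Alignments for the counting, which the featureCounts headers of the tables contradict. At its default settings, read pairs that map to several places or overlap several genes are not counted. The gene lengths in the deposited count tables were used for TPM. Symbols came from GENCODE M21 (55141 of 55487 genes).

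Counts were tested with edgeR 4.0.16 (filterByExpr, TMM, glmQLFit with robust estimation, glmQLFTest, R 4.3.3) within LSK, LK and MSC, and over the 10 LSK and LK libraries for their comparison and the interaction. The study's methods name DESeq2 for this step, which was run here as an alternative. The SE is the log2 fold change divided by the square root of F. Counts were simulated with 200 genes, drawn above a minimum mean CPM, changed by a log2 fold of 2 in size. The tests called 166 (LSK), 199 (LK), 200 (MSC) and 148 (interaction) of them and 12, 8, 11 and 4 unchanged genes. Most changes of the members were smaller than 2, and no simulated library was made to stand apart as LSK PBS replicate 2 did. These numbers therefore do not give the power of the tests for smaller changes. Groups with at most 3 counts in every library were taken as at the floor. The alternatives were DESeq2 1.42.0, DESeq2's size factors and upper-quartile factors in edgeR, no filter, at least 10 read pairs in at least 2 libraries, no fold threshold, the replicate number as a block and each replicate left out. Nearest genes used log2 CPM with a prior count of 2.

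The labels number the LSK and LK libraries alike. Deviations from the group means correlated across genes between same-numbered LSK and LK libraries at r = 0.213, 0.128 and 0.474 with PBS and 0.100 with IL-1β, all over the 0.1 set for taking them as pairs. Libraries of different number reached 0.162 (LSK PBS 2 with LK PBS 1) and 0.129 (LSK PBS 1 with LK PBS 2), and no source states a pairing. Printed values of LSK against LK are from the fit without the block, and the block is given where it changed a result. The members and gene lists were chosen with earlier results of these data known. A further IL-1β MSC library named in a file header was not analysed here. Results of some single genes are not reported here.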

Additional observations from a re-analysis of the deposited data

Results flagged for a closer look

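The response of Il18rap to IL-1β differed between LSK and LK in the interaction test, from groups that did not overlap in either population. The LSK log2 response minus the LK response was -3.58 (edgeR adjusted p = 0.0479). The call was lost in 10 of the 16 alternatives, over which the difference ran from -4.27 to -3.07. Il18rap also lay on opposite sides of its PBS libraries in LK and MSC, where both IL-1β libraries were above every PBS library in LK and under both PBS libraries in MSC. The LK response minus the MSC response was 2.92 on the log2 scale, the MSC response was not called and rests on 4 to 35 read pairs, and the difference was not tested. With 1 library left out, the MSC log2 fold change of Il18rap ran from -1.89 to -0.23. Il1r1 was lower in both IL-1β libraries than in any PBS library in LSK and higher in both in MSC. The MSC groups nearly touched, with 7.68 CPM the highest with PBS and 7.94 CPM the lowest with IL-1β. Libraries did not overlap for 39.6% of all genes tested in LSK, 45.7% in LK and 61.2% in MSC. The LSK response minus the MSC response was -1.72 on the log2 scale, neither response was called by edgeR, and the difference was not tested. The LSK and MSC treatments differed in genotype, route and length.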

How the results depend on the processing

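Il1r1, Il18rap, Sigirr and Il1rl1 kept their call and sign between LSK and LK in all 17 alternatives, and the number of members highest in LSK with PBS was 6 or 7 in the 10 alternatives for levels. Counts of calls elsewhere depended on the setting, and the cause was not tested. In LSK, 83 genes and 0 members were called by edgeR, against 870 and 4 with DESeq2, 869 and 3 with no filter, and 726 and 3 with the replicate block, and leaving out 1 library gave 3 to 480 genes and 0 to 1 members. In LK, 1199 genes and 4 members (Il1r2 among them) met the threshold, against 1844 genes with no filter, and leaving out 1 library gave 66 to 2409 genes and 0 to 6 members. In MSC, 1515 genes and 1 member were called, against 2354 genes with no filter, and leaving out 1 library gave 38 to 3819 genes and 0 to 2 members. Between LSK and LK, 4394 genes were called, and leaving out 1 library gave 2741 to 4607. For the interaction, 4 genes and 1 member were called, against 324 and 3 with DESeq2 and 398 and 3 with no filter, 0 members with DESeq2's size factors or upper-quartile factors in edgeR, and 0 to 336 genes and 0 to 2 members without 1 library. A group left with 1 library was assumed to vary like the other group.

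The replicate number as a block, with which treatments share only a number, gave 2368 genes in LK, where it also called Il1r1 (edgeR adjusted p = 0.0411), and in LSK it called Il1r1, Il1rl1 and Il18rap. Same-numbered PBS and IL-1β libraries correlated at r = 0.126 and -0.0356 in LSK and at -0.102 and 0.0333 in LK. For the interaction, where numbers were treated as pairs of LSK and LK libraries, the block gave 24 genes and changed no member's call, and it changed none between LSK and LK. No paired analysis was possible because the MSC treatments share a single replicate number. Depth limits Il1r2, Il18r1 in LK and Il1rn in LSK and LK, which lay at a few read pairs per library.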
